A study of Mus musculus with 12 samples.

Results

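Immediate early genes are transcribed as soon as a cell is stimulated, by factors that are already present and without new protein synthesis. Their products are mostly transcription factors, and some feed back to end the response. Growth factors, calcium entry, shear and injury switch them on in endothelium, and enzymatic dissociation and sorting are known to do the same in many tissues, so their RNA in sorted cells is often read as a trace of the isolation. Kinases of the MAPK families act on transcription factors bound at their promoters, above all the serum response factor at CArG boxes and CREB at cyclic AMP response elements. The FOS and JUN proteins then pair as AP-1, the dimer that many stress and growth genes respond to.

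The genes described here are 10 members chosen by name: Fos, Fosb, Jun, Junb, Jund, Atf3, Egr1, Ier2, Dusp1 and Zfp36, out of 21638 genes in the count table. All 10 passed the filter on low counts, a mean of at least 10 counts over the libraries, which left 12577 genes for testing. RNA came from cortical endothelial cells of adult mouse brain, sorted for CD31 and against CD41 and CD45, which select endothelium and remove platelets and leukocytes. The 12 libraries formed 4 groups of 3: wild type (WT), Hdac2 ECKO (Hdac2lox/lox:Cdh5CreERT2, an endothelial deletion of a histone deacetylase gene), Ezh2 ECKO (Ezh2lox/lox:Cdh5CreERT2, an endothelial deletion of the gene of the Polycomb methyltransferase) and beta-catenin GOF (Ctnnb1lox/lox:Cdh5CreERT2, constitutively active beta-catenin in endothelium). The labels give 5 doses of tamoxifen at 75 mg/kg, which turns on the endothelial Cre recombinase, and brains taken 2 months later; they do not make clear whether WT mice carried the Cre or received tamoxifen. The cells were frozen straight after the sort, and no undissociated tissue was analysed here, so the share of each level that isolation itself added cannot be measured. Nothing in the labels says whether the 3 libraries of a group are 3 animals, so p-values measure the spread between libraries.

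Libraries held 24781070 to 36109975 counts, with 13922 to 17091 genes above 0. Levels are CPM, counts per 1000000 after TMM scaling of the library totals. Hdac2 went from 129 ± 30.1 CPM (WT) to 96.5 ± 15.2 CPM (Hdac2 ECKO), a log2 fold change of −0.42 (SD, n = 3 in each group here, edgeR adjusted p 0.22). Ezh2 went from 6.75 ± 3.52 CPM (WT) to 8.92 ± 3.36 CPM (Ezh2 ECKO) (0.40, adjusted p 0.61), against the direction of the label, so those are called the Ezh2 ECKO-labelled libraries. Ctnnb1 went from 654 ± 138 CPM (WT) to 583 ± 109 CPM (beta-catenin GOF) (−0.17, adjusted p 0.96). The labels do not give the exons that the lox sites flank, so a count over the whole gene is a weak check of these alleles. The summed level of 15 endothelial markers was 18308.5 to 20021 CPM in Hdac2 ECKO, below the 22301 to 26946 CPM of WT. The sum was also below every library of the other 2 mutants, at 20943 to 25738 CPM. Its largest part was Ly6c1, whose mean fell from 12896 (WT) to 8132 CPM (Hdac2 ECKO). The markers did not fall as a set: 6 of the 15 were lower in Hdac2 ECKO than in WT, with a median log2 fold change of 0.20.

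The promoters of 4 members are shown because each carries, upstream of its start, a match to a motif searched for. In Fosb, Dusp1 and Zfp36 the motif is one known in immediate early control. In Fos it is TATAAA alone, which 13.6% of all windows hold. RefSeq windows on GRCm38.p6, from 250 bases before to 50 bases after the start, were searched for 8 of the 10 members. Ier2 had no window, and Egr1 was left out of the search, so the motif counts do not cover them. Each line gives the 150 bases before the start, 5′ to 3′ on the gene's strand, with the motif in capitals. The Fos stretch is chr12:85473740-85473889 (plus strand), with TATAAA 33 bases before the start. The Fosb stretch is chr7:19310046-19310195 (minus strand), with an EGR site 50 bases before it. The Dusp1 stretch is chr17:26508473-26508622 (minus strand), with the cyclic AMP response element TGACGTCA 143 bases before it. The Zfp36 stretch is chr7:28379229-28379378 (minus strand), with an EGR site 105 bases and a CArG box 58 bases before it.
Fos: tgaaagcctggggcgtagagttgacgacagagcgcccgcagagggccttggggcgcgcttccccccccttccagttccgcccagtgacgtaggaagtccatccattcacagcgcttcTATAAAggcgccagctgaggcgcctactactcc
Fosb: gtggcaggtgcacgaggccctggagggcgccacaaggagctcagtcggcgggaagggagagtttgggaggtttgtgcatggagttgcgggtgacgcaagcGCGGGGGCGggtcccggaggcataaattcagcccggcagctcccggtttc
Dusp1: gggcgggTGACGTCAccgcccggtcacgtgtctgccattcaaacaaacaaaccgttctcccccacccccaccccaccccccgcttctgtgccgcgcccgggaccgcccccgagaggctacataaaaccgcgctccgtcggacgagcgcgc
Zfp36: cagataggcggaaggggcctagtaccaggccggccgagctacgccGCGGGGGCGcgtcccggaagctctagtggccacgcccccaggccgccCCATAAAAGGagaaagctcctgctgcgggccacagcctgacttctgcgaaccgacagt

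Searched on both strands, TGACGTCA was found in 1 of the 8 member windows and in 1.79% of the 32851 windows of the table. The CArG box was found in 1 member window and in 1.63% of all, the EGR site GCGNGGGCG in 2 and in 5.55%, and TATAAA in 2 (Fos and Junb, the latter from the first base of the start) and in 13.6%. The AP-1 site TGANTCA was found in 0 member windows and in 7.81% of all. These are matches of letters in short windows, and elements farther upstream lie outside them. The windows of Fos, Fosb, Jun and Junb hold the gene's first base in the count table, and those of Jund, Atf3, Dusp1 and Zfp36 do not: the RefSeq start of Jund lies upstream of it, and the starts of Atf3, Dusp1 and Zfp36 lie downstream.

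All 10 members were abundant. Per kilobase of gene model, the mean level over the 12 libraries was highest for Fos, at 563 CPM per kb, followed by Ier2 at 293, Dusp1 at 265, Zfp36 at 112, Atf3 at 105, Junb at 87.6, Jun at 58.5, Egr1 at 48.6, Fosb at 39.9 and Jund at 37.8 CPM per kb. On this scale, the members stood between the 88.5 and 99.0 percentile of the genes tested. Together they took 1.08%, 0.491% and 0.305% of the counts in WT replicates 1, 2 and 3, 0.484%, 0.190% and 0.383% in Hdac2 ECKO, 0.373%, 0.362% and 0.412% in the Ezh2 ECKO-labelled libraries, and 0.335%, 0.301% and 0.258% in beta-catenin GOF. WT replicate 1 therefore held the largest share of the 12 libraries and Hdac2 ECKO replicate 2 the smallest. The summed CPM was 6474 ± 3886 in WT, 3196 ± 1499 in Hdac2 ECKO, 4005 ± 349.7 in the Ezh2 ECKO-labelled libraries and 3056 ± 581 in beta-catenin GOF (SD, n = 3 each), and the ranges of WT and each mutant overlapped. WT replicate 1 had the highest level of 7 members, and Hdac2 ECKO replicate 2 the lowest level of 6.

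**Figure D1:**
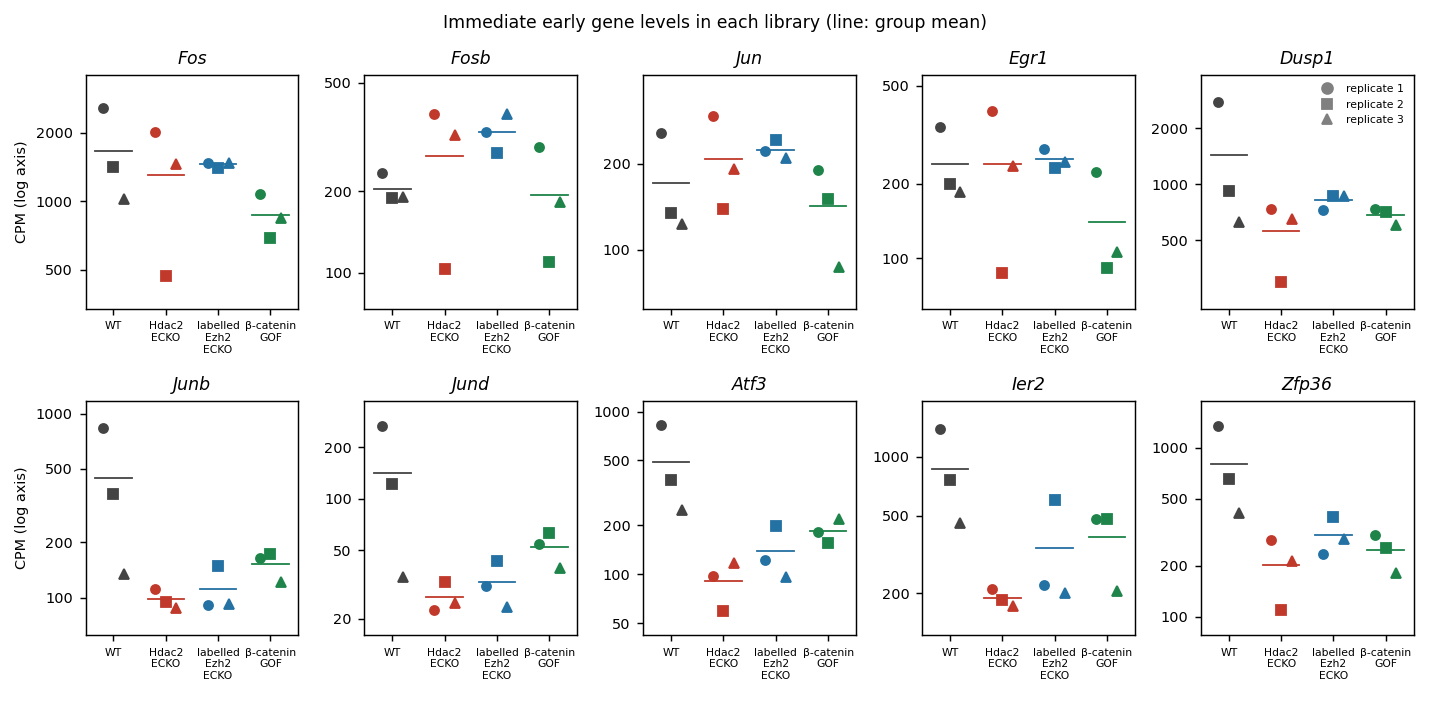
Level of each immediate early gene in each of the 12 libraries, in CPM on a log axis, with the line at the group mean (n = 3) and the marker shape giving the replicate number. In the upper row of Fos, Fosb, Jun and Egr1 the 4 groups overlap apart from a few pairs of groups, whereas in the lower row WT replicates 1 and 2 of Junb, Jund, Atf3, Ier2 and Zfp36 stand above every mutant library.

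Fos (chromosome 12, 85473890 to 85477273, GRCm38) encodes the AP-1 subunit that dimerizes with JUN proteins. Values are given in the order of replicates 1, 2 and 3. Fos stood at 2576, 1416 and 1019 CPM in the WT libraries, 2008, 471 and 1450.3 CPM in those of Hdac2 ECKO, 1477, 1404 and 1473 CPM in the Ezh2 ECKO-labelled ones, and 1079.8, 688 and 840.3 CPM in those of beta-catenin GOF. Levels were highest in WT replicate 1 and Hdac2 ECKO replicate 1, and the 3 values of Hdac2 ECKO spanned those of WT replicates 2 and 3. The log2 fold change of Fos against WT was −0.35 (SE 0.43, adjusted p 0.59) in Hdac2 ECKO, −0.20 (SE 0.43, 0.80) in the Ezh2 ECKO-labelled libraries and −0.94 (SE 0.43, 0.81) in beta-catenin GOF. Fosb (chromosome 7, 19302696 to 19310051) encodes another FOS protein, whose short splice form persists longer than FOS. Fosb was measured at 232, 188 and 190.5 CPM in the WT libraries, 382, 103 and 320.4 CPM in those of Hdac2 ECKO, 329.6, 277 and 382 CPM in the Ezh2 ECKO-labelled ones, and 289.7, 110.0 and 183 CPM in those of beta-catenin GOF. The 3 libraries labelled Ezh2 ECKO all stood above the 3 WT libraries, which differed little from each other. Against WT, Fosb had a log2 fold change of 0.40 (SE 0.40, adjusted p 0.51) in Hdac2 ECKO, 0.69 (SE 0.41, 0.30) in the Ezh2 ECKO-labelled libraries and −0.07 (SE 0.40, 0.99) in beta-catenin GOF. The higher level of Fosb in the Ezh2 ECKO-labelled libraries did not pass the test.

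The 3 Jun genes did not move together. Jun (chromosome 4, 95049034 to 95052222) encodes the JUN protein, the main activating partner of FOS. Jun had levels of 256, 134 and 123 CPM in the WT libraries, 293, 139 and 192 CPM in those of Hdac2 ECKO, 222, 242 and 209 CPM in the Ezh2 ECKO-labelled ones, and 190.2, 151 and 87.1 CPM in those of beta-catenin GOF. The groups overlapped in every comparison with WT. In the edgeR fit, Jun had a log2 fold change against WT of 0.28 (SE 0.35, adjusted p 0.60) in Hdac2 ECKO, 0.39 (SE 0.35, 0.51) in the Ezh2 ECKO-labelled libraries and −0.26 (SE 0.35, 0.95) in beta-catenin GOF.

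Junb (chromosome 8, 84974484 to 84978718) encodes a JUN protein that activates less strongly than JUN and competes with it for partners. Junb stood at 838, 363 and 134 CPM in the WT libraries, 112, 94.4 and 87.7 CPM in those of Hdac2 ECKO, 91.5, 148 and 92.8 CPM in the Ezh2 ECKO-labelled ones, and 165, 172 and 121 CPM in those of beta-catenin GOF. WT replicate 1 stood far above the rest, WT replicate 3 lay close to the mutants, and only the 3 Hdac2 ECKO values lay wholly below WT. The log2 fold change of Junb against WT was −2.18 (SE 0.47, adjusted p 0.032) in Hdac2 ECKO, −2.01 (SE 0.46, 0.051) in the Ezh2 ECKO-labelled libraries and −1.55 (SE 0.46, 0.55) in beta-catenin GOF. Jund (chromosome 8, 70698949 to 70700616) encodes the JUN protein that is usually expressed without stimulation. Jund was measured at 266, 121 and 35.04 CPM in the WT libraries, 22.5, 32.8 and 24.5 CPM in those of Hdac2 ECKO, 31.2, 43.3 and 23.3 CPM in the Ezh2 ECKO-labelled ones, and 54.4, 63.6 and 39.5 CPM in those of beta-catenin GOF. The order of the libraries was nearly that of Junb, with a 7.58-fold range within WT. Against WT, Jund had a log2 fold change of −2.40 (SE 0.51, adjusted p 0.032) in Hdac2 ECKO, −2.11 (SE 0.51, 0.056) in the Ezh2 ECKO-labelled libraries and −1.42 (SE 0.49, 0.71) in beta-catenin GOF.

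Atf3 (chromosome 1, 191170296 to 191218039) encodes a stress-induced bZIP repressor that binds AP-1 and cyclic AMP response elements. Atf3 had levels of 831, 380.3 and 246 CPM in the WT libraries, 97.1, 59.1 and 117 CPM in those of Hdac2 ECKO, 122, 198 and 95.6 CPM in the Ezh2 ECKO-labelled ones, and 182, 156 and 218 CPM in those of beta-catenin GOF. Each of the 9 mutant libraries lay below each of the 3 WT libraries. In the edgeR fit, Atf3 had a log2 fold change against WT of −2.41 (SE 0.42, adjusted p 0.032) in Hdac2 ECKO, −1.81 (SE 0.41, 0.048) in the Ezh2 ECKO-labelled libraries and −1.39 (SE 0.41, 0.54) in beta-catenin GOF. By mean level the order was WT (486 ± 307 CPM), beta-catenin GOF (185 ± 31.1 CPM), the Ezh2 ECKO-labelled libraries (138 ± 53.3 CPM) and Hdac2 ECKO (91.2 ± 29.6 CPM; SD, n = 3 each). The neighbouring mutants in this order did not differ past the threshold (edgeR adjusted p 0.65 and 0.70).

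Egr1 (chromosome 18, 34859823 to 34864984) encodes a zinc finger factor that binds GC-rich sites. Egr1 stood at 339, 200.03 and 185 CPM in the WT libraries, 396, 87.3 and 236 CPM in those of Hdac2 ECKO, 277, 233 and 244 CPM in the Ezh2 ECKO-labelled ones, and 224, 91.2 and 106 CPM in those of beta-catenin GOF. Hdac2 ECKO held both the highest and the lowest library. The log2 fold change of Egr1 against WT was −0.01 (SE 0.44, adjusted p 0.99) in Hdac2 ECKO, 0.06 (SE 0.44, 0.95) in the Ezh2 ECKO-labelled libraries and −0.78 (SE 0.45, 0.89) in beta-catenin GOF. Ier2 (chromosome 8, 84661331 to 84662854) encodes a short nuclear protein induced by growth factors. Ier2 was measured at 1383, 765 and 457 CPM in the WT libraries, 211, 185 and 171 CPM in those of Hdac2 ECKO, 221, 600.0 and 202 CPM in the Ezh2 ECKO-labelled ones, and 479, 478 and 205 CPM in those of beta-catenin GOF. The 3 Hdac2 ECKO values lay together below WT, while the Ezh2 ECKO-labelled libraries were split, with replicate 2 inside the WT range. Against WT, Ier2 had a log2 fold change of −2.20 (SE 0.47, adjusted p 0.032) in Hdac2 ECKO, −1.35 (SE 0.46, 0.10) in the Ezh2 ECKO-labelled libraries and −1.16 (SE 0.46, 0.77) in beta-catenin GOF.

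Dusp1 and Zfp36 end the response. Dusp1 (chromosome 17, 26505590 to 26562128, a span that includes 1 long transcript) encodes the phosphatase that inactivates MAPKs. Dusp1 had levels of 2776, 923 and 624 CPM in the WT libraries, 734, 300.2 and 652 CPM in those of Hdac2 ECKO, 729, 866 and 869 CPM in the Ezh2 ECKO-labelled ones, and 740.2, 707 and 608 CPM in those of beta-catenin GOF. WT replicate 1 was the library that stood apart, and WT replicate 3 lay within the mutant range. In the edgeR fit, Dusp1 had a log2 fold change against WT of −1.36 (SE 0.45, adjusted p 0.062) in Hdac2 ECKO, −0.81 (SE 0.44, 0.27) in the Ezh2 ECKO-labelled libraries and −1.07 (SE 0.45, 0.78) in beta-catenin GOF. Zfp36 (chromosome 7, 28376784 to 28380253) encodes tristetraprolin, which binds AU-rich elements and speeds the decay of cytokine and immediate early mRNAs. Zfp36 stood at 1353, 654 and 412 CPM in the WT libraries, 286, 109 and 214 CPM in those of Hdac2 ECKO, 235, 390.2 and 288 CPM in the Ezh2 ECKO-labelled ones, and 303, 254 and 182 CPM in those of beta-catenin GOF. As for Atf3, each of the 9 mutant libraries lay below each WT library. The log2 fold change of Zfp36 against WT was −1.99 (SE 0.43, adjusted p 0.032) in Hdac2 ECKO, −1.404 (SE 0.42, 0.079) in the Ezh2 ECKO-labelled libraries and −1.71 (SE 0.42, 0.42) in beta-catenin GOF.

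In Hdac2 ECKO against WT, 5 of the 10 members fell and 0 rose at an adjusted p under 0.05 (edgeR quasi-likelihood test, adjusted over all 12577 genes). The 5 were Atf3, Jund, Ier2, Junb and Zfp36, at 0.19, 0.19, 0.22, 0.22 and 0.25 of the WT level. Over all genes tested, 9.2% were called in either direction, 5.38% lower and 3.82% higher. The values of these 5 members did not overlap between the groups, which held in this direction for 18.2% of all genes. The median log2 fold change of the 10 members was −1.67, beside 0.10 over all genes. Dusp1, at 0.39 of the WT level, did not pass (adjusted p 0.062). For Fos, Fosb, Jun and Egr1 the 95% intervals of the log2 fold change ran from −1.26 to 0.56, −0.46 to 1.26, −0.46 to 1.02 and −0.96 to 0.93.

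The calls depended on single libraries. Without WT replicate 1, WT replicate 2, Hdac2 ECKO replicate 1 or Hdac2 ECKO replicate 3, 0 of the 10 members passed, and in those 4 fits 0, 0, 1 and 0 genes of the whole table passed. The direction of these 5 did not depend on them: without WT replicate 1, the log2 fold changes were −1.78 for Atf3, −1.69 for Ier2, −1.55 for Jund, −1.39 for Zfp36 and −1.35 for Junb, with adjusted p from 0.092 to 0.13, and the median over the 10 members was −0.90. Junb, Jund, Atf3, Ier2 and Zfp36 were lower in Hdac2 ECKO in all 25 alternative fits, and each passed in 13 of 13 fits with another scaling, filter, test or correction.

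**Figure D2:**
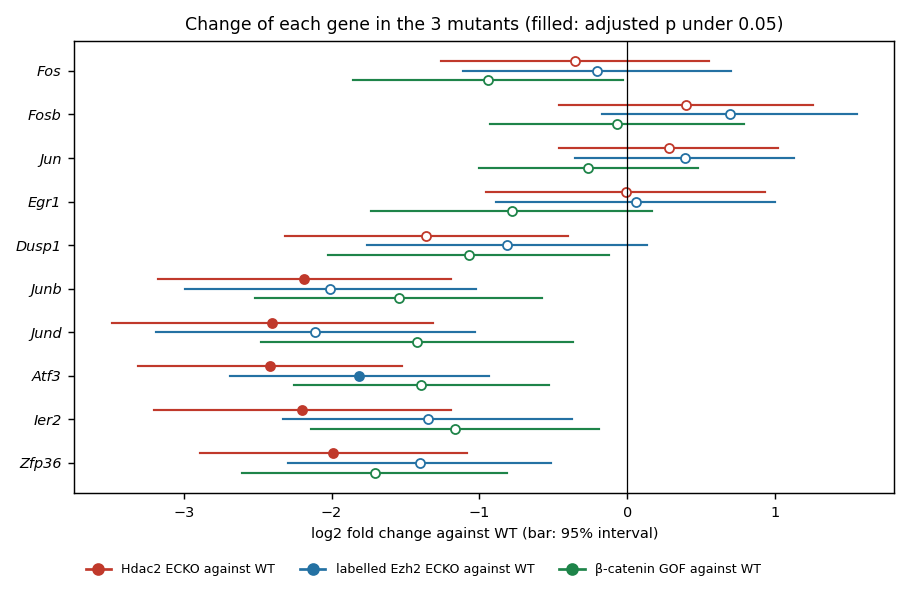
Log2 fold change of each immediate early gene against WT in the 3 mutants, with 95% intervals from the edgeR fit, filled where the adjusted p was under 0.05. The 5 members that fell in Hdac2 ECKO lie left of 0 in each mutant, and Fos, Fosb, Jun and Egr1 lie around 0 in Hdac2 ECKO and in the Ezh2 ECKO-labelled libraries.

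In the Ezh2 ECKO-labelled libraries against WT, 1 of the 10 members, Atf3, fell, to 0.28 of the WT level (adjusted p 0.048), where 1.03% of all genes were called, 0.684% lower and 0.342% higher. Junb, Jund, Zfp36 and Ier2 had log2 fold changes of −2.01, −2.11, −1.404 and −1.35 and missed the threshold, with adjusted p of 0.051, 0.056, 0.079 and 0.10. The values of Atf3 and Zfp36 lay wholly below WT, against 10.9% of all genes, and those of Fosb lay wholly above, where 22% of all genes did not overlap in either direction. The median over the members was −1.08, beside 0.05 over all genes, and −0.36 without WT replicate 1, where 5 of the 10 were below 0. Atf3 passed in 8 of 13 fits with another scaling, filter, test or correction and in 3 of 12 with 1 library left out. It did not pass without WT replicate 1 (−1.18, adjusted p 0.23) or with the trend on gene length and GC content removed (−1.39, adjusted p 0.057). DESeq2 called 5 members.

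In beta-catenin GOF against WT, 0 of the 10 members passed the edgeR test and 0% of all genes did. At an unadjusted p under 0.05 there were 7 members and 6.07% of all genes, and DESeq2 called 1 member. All 10 log2 fold changes were below 0, from −0.07 for Fosb to −1.71 for Zfp36, with a median of −1.12 beside 0.01 over all genes. Without WT replicate 1 the median was −0.53, 8 of the 10 were below 0, and the values ran from −1.11 for Zfp36 to 0.15 for Jun. The values of Atf3 and Zfp36 lay wholly below WT, which held for 5.87% of all genes in this direction. The 3 comparisons against WT share the WT libraries, so a high WT library lowers all 3 at once.

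Averaged over the 3 mutants with equal weights, 5 of the 10 members were lower than in WT at an edgeR adjusted p under 0.05. Of all genes, 2.31% were called, 1.85% lower and 0.461% higher. Regardless of the threshold, 8 of the 10 log2 fold changes were below 0. Those of the 5 that passed were −1.87 for Atf3 (adjusted p 0.012), −1.91 for Junb (0.019), −1.98 for Jund (0.022), −1.70 for Zfp36 (0.022) and −1.57 for Ier2 (0.036). The values of Atf3 and Zfp36 lay wholly below WT, beside 1.91% of all genes. Without WT replicate 1 or without WT replicate 2, 0 members passed, while 42 and 0 genes of the whole table did. In the test of any difference among the 4 groups, 2 members passed, Atf3 (adjusted p 0.041) and Junb (0.0497), beside 0.731% of all genes.

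Between mutants, 0 of the 10 members passed the edgeR test in each of 3 comparisons, where the shares of all genes called were 0.0239% (Hdac2 ECKO against the Ezh2 ECKO-labelled libraries), 0.0716% (Hdac2 ECKO against beta-catenin GOF) and 0.0636% (the Ezh2 ECKO-labelled libraries against beta-catenin GOF). At an unadjusted p under 0.05 the counts of members were 0, 2 and 0 in that order, beside 8.19%, 21.1% and 13.2% of all genes, and DESeq2 called 0 members in each. The 2 were Atf3 and Ier2, higher in beta-catenin GOF than in Hdac2 ECKO by 1.02 (95% interval 0.16 to 1.88, adjusted p 0.19) and 1.03 (0.06 to 2.01, adjusted p 0.22) on the log2 scale. Junb, Jund and Atf3 did not overlap between these groups, which held for 32% of all genes in either direction. Fos, Jun and Egr1 lay wholly lower in beta-catenin GOF than in the Ezh2 ECKO-labelled libraries, with log2 fold changes of −0.74, −0.65 and −0.84, beside 8.67% of all genes. For Egr1 the interval was −1.79 to 0.11.

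Over the 12 libraries, the pairwise correlations of the members formed 2 sets, described here as they appeared in the values. Of the 45 pairs, 23 had an adjusted p under 0.05 for Pearson's r of log2 CPM and 16 for Spearman's rho (two-sided permutation tests with 100000 resamples, Benjamini-Hochberg over the 45 pairs). Fos and Egr1 had r = 0.94 and rho = 0.97, each at the smallest p these permutations can give, 1e-05, and r = 0.88 without the 2 libraries farthest from the median of Fos. Fosb and Egr1 had r = 0.87 (adjusted p 0.001) and rho = 0.87 (0.004), and Jun and Egr1 had r = 0.79 (0.007) and rho = 0.85 (0.008), and without the 2 farthest libraries r was 0.67 and 0.83. For Fos and Fosb, r fell from 0.78 to 0.43 without them. It rose from 0.70 to 0.81 for Fos and Jun and from 0.66 to 0.78 for Fosb and Jun. Fos, Fosb, Jun and Egr1 formed the first set.

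Junb, Jund, Atf3, Ier2 and Zfp36 formed the other set. Junb and Jund had r = 0.97 (adjusted p 0.001), rho = 0.90 (0.004) and r = 0.86 without the 2 farthest libraries. Junb and Ier2 had r = 0.91, rho = 0.89 (adjusted p 0.004) and r = 0.89 without them. Jund and Zfp36 had r = 0.78 (adjusted p 0.011) and rho = 0.53 (0.16), and r fell to 0.12 without the 2 farthest libraries, so that relation rested on them. Across the sets, r was −0.31 for Fosb and Jund, −0.17 for Fosb and Junb, 0.11 for Jun and Junb, and 0.06 for Egr1 and Jund, and none of these 4 passed. Of the 20 pairs across the sets, 1 passed, Fos and Zfp36 (r = 0.71, adjusted p 0.023, rho = 0.41, adjusted p 0.33), and the median r was 0.20. The split was weaker within groups: with the group means removed, the 20 pairs had a median correlation of 0.50, up to 0.89 for Jun and Zfp36, beside 0.83 within the first set and 0.77 within the other. Dusp1 passed by r with every gene of the other set, from 0.72 for Jund to 0.91 for Zfp36. Of the first set it passed with Fos alone (r = 0.80), with r = 0.35 for Fosb, 0.47 for Jun and 0.61 for Egr1. Without the 2 farthest libraries, r was 0.75 with Fos and 0.64 with Zfp36, but 0.02 with Jund and 0.10 with Atf3. By rho, Dusp1 passed with Zfp36 alone, at 0.78 (adjusted p 0.017), and rho with Fos was 0.67 (0.051). With the group means removed, 43 of the 45 correlations were above 0 and their median was 0.70, so libraries of 1 group also differed in the level of most members at once. The 12 libraries share the 4 groups, so part of each pooled r is the difference between groups.

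**Figure D3:**
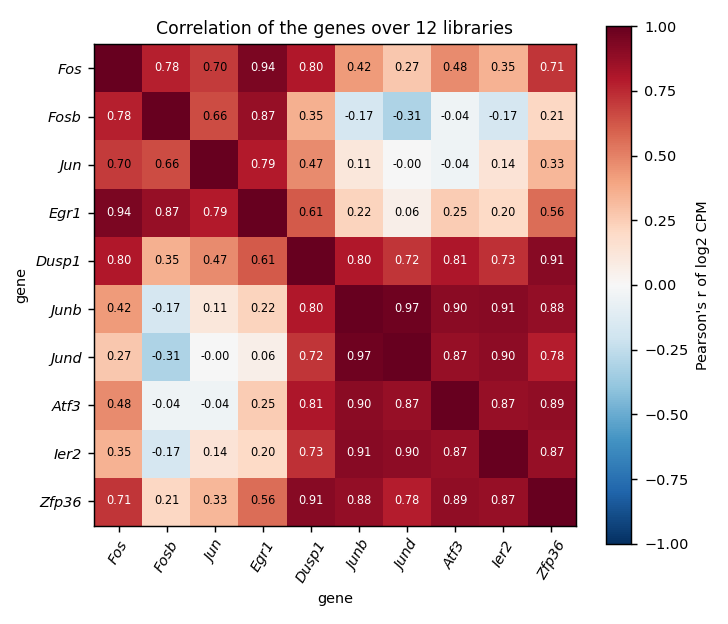
Pearson's r of log2 CPM for each pair of immediate early genes over the 12 libraries, on a colour scale from −1 to 1. Fos, Fosb, Jun and Egr1 form 1 block of high values, up to 0.94, and Junb, Jund, Atf3, Ier2 and Zfp36 another, up to 0.97. Dusp1, placed between them, has values of 0.35 to 0.80 with the first block and 0.72 to 0.91 with the other.

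Ratios of members within a library do not depend on how libraries are scaled, and 4 were formed after the values had been seen, as a description. Each divides a member that did not pass in Hdac2 ECKO by one that fell there, so a higher ratio restates those changes. How often ratios of other genes fail to overlap between groups was not counted. The ratios were not corrected for gene length or GC content. The comparisons of Hdac2 ECKO and of the Ezh2 ECKO-labelled libraries with WT moved with both, as given below. The genes of a ratio can differ in length, such as Fosb with 6243 bases and Atf3 with 2154. The ratio of Fos to Junb counts was 3.07, 3.90 and 7.58 in WT replicates 1, 2 and 3, 17.9, 4.99 and 16.5 in Hdac2 ECKO, 16.1, 9.50 and 15.9 in the Ezh2 ECKO-labelled libraries, and 6.56, 4.00 and 6.94 in beta-catenin GOF. The libraries labelled Ezh2 ECKO all lay above WT, Hdac2 ECKO overlapped WT through replicate 2, and beta-catenin GOF lay within the WT range. The ratio of Jun to Jund was 0.964, 1.11 and 3.51 in the WT libraries, 13.03, 4.23 and 7.84 in those of Hdac2 ECKO, 7.13, 5.57 and 8.98 in the Ezh2 ECKO-labelled libraries, and 3.50, 2.37 and 2.21 in beta-catenin GOF. Here both ECKO groups lay wholly above WT. The ratio of Fosb to Atf3 covered 0.279 to 0.773 (WT), 1.75 to 3.94 (Hdac2 ECKO), 1.397 to 3.99 (the Ezh2 ECKO-labelled libraries) and 0.705 to 1.60 (beta-catenin GOF). The ratio of Egr1 to Ier2 covered 0.245 to 0.405 (WT), 0.471 to 1.88 (Hdac2 ECKO), 0.388 to 1.25 (the Ezh2 ECKO-labelled libraries) and 0.191 to 0.517 (beta-catenin GOF), and of the 3 mutants Hdac2 ECKO alone did not overlap WT. Hdac2 ECKO replicate 2, the library with the lowest Fos, Fosb and Egr1, had a low ratio of Fos to Junb, into which its low Fos enters.

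Within groups the members varied more than most genes. The SD of log2 CPM within groups ran from 0.49 for Jun to 0.80 for Jund, beside a median of 0.46 over all genes tested, and stood between the 54.7 and 80.7 percentile. The groups differed in which members were variable. In Hdac2 ECKO the SD was 1.10 for Fos, 1.02 for Fosb and 1.11 for Egr1, but 0.18 for Junb and 0.15 for Ier2. In WT it was 0.68, 0.17 and 0.47 for the first 3, and 1.32 and 0.80 for Junb and Ier2. In the Ezh2 ECKO-labelled libraries, Fos varied least of the members, with an SD of 0.04.

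Gene length and GC content moved with the comparisons of Hdac2 ECKO and of the Ezh2 ECKO-labelled libraries with WT. All genes tested were split by length into 5 bins of equal number. In Hdac2 ECKO, genes of the shortest bin had a median log2 fold change of −0.52 and those of the longest 0.66. These medians were −0.21 and 0.43 in the Ezh2 ECKO-labelled libraries, and −0.01 and 0.13 in beta-catenin GOF. Of the members, 5 (Fos, Junb, Jund, Atf3 and Ier2) lay in the shortest bin, 3 (Jun, Dusp1 and Zfp36) in the next, Egr1 in bin 3 and Fosb in bin 4. In 5 bins by GC content the median of Hdac2 ECKO went from 0.26 in the lowest to −0.14 in the highest. That of the Ezh2 ECKO-labelled libraries went from 0.248 to −0.222, and that of beta-catenin GOF from −0.037 to 0.035. Of the members, 6 lay in the highest bin and 4 in the next. Jund, Junb and Ier2 stood at the 99.9, 99.0 and 97.7 percentile of GC content. With a smooth trend on length and GC content removed from every library, Atf3, Zfp36, Jund, Ier2 and Junb had log2 fold changes of −1.85, −1.64, −1.58, −1.52 and −1.47 in Hdac2 ECKO (adjusted p 0.025 to 0.046), and the same 5 members passed. In that fit Fos stood at 0.20 and Jun at 0.70, neither of which passed.

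**Figure D4:**
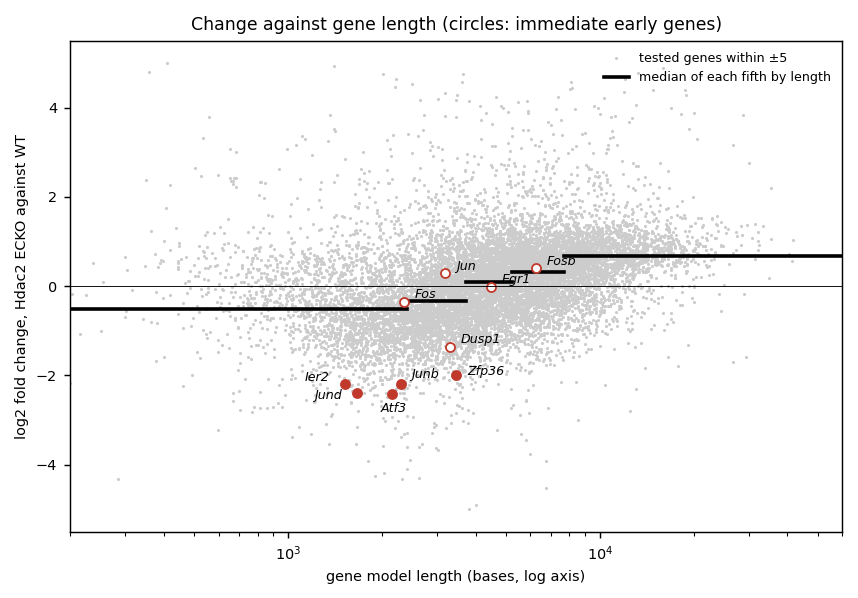
Log2 fold change of Hdac2 ECKO against WT over the length of the gene model (log axis) for the genes tested, with black bars at the median of each of the 5 length bins and circles for the immediate early genes, filled where the adjusted p was under 0.05. The bars climb from −0.52 to 0.66, and the 5 filled circles lie below the bars of their own bins.

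Markers of other cells also moved with the groups. The summed level of 9 red cell and platelet markers ran from 36148 to 61418 CPM in WT, 406 to 21723 in Hdac2 ECKO, 2532 to 6715 in the Ezh2 ECKO-labelled libraries and 528 to 35413 in beta-catenin GOF, nearly all of it from the globin genes such as Hba-a1. Every mutant library lay below every WT library in this sum, so it cannot be told apart from the difference between WT and mutants. The sum of 13 microglia and leukocyte markers covered 10.8 to 21.3 CPM (WT), 3.40 to 8.58 CPM (Hdac2 ECKO), 4.21 to 18.1 CPM (the Ezh2 ECKO-labelled libraries) and 3.55 to 5.11 CPM (beta-catenin GOF), so Hdac2 ECKO and beta-catenin GOF lay wholly below WT. Of these 13 markers, 0 to 5 were at 0 in a WT library and 2 to 10 in a mutant library. Cx3cr1 and Tmem119, which mark microglia, had at most 12 and 8 counts. Csf1r, a receptor of microglia and macrophages, reached 230 in an Ezh2 ECKO-labelled library. Its mean was 1.78 CPM in WT and higher in each mutant: 1.86 (Hdac2 ECKO), 6.14 (the Ezh2 ECKO-labelled libraries) and 2.80 CPM (beta-catenin GOF). Of the 8 microglia and leukocyte markers tested, Cd53 alone passed, lower in Hdac2 ECKO and in the Ezh2 ECKO-labelled libraries. Cd53, a leukocyte surface gene, had 60 to 80 counts in each WT library and 0 in each of the 9 mutant libraries. Ptprc, which encodes the CD45 used in the sort, had at most 48 counts. The sum of 12 pericyte and smooth muscle markers was 67.4 to 124 CPM in WT and lay higher in Hdac2 ECKO, at 133 to 320 CPM. It was 122 to 384 CPM in beta-catenin GOF and 57.7 to 73.2 CPM in the Ezh2 ECKO-labelled libraries. Of the 11 markers of this list tested, 4 passed in Hdac2 ECKO against WT, all higher, beside 9.2% of all genes called. None of the 11 was lower there. None passed in the Ezh2 ECKO-labelled libraries or in beta-catenin GOF against WT. The sum of 9 astrocyte markers lay wholly above WT (24.3 to 36.3 CPM) in each mutant, at 50.8 to 76.5 CPM (Hdac2 ECKO), 44.2 to 79.9 CPM (the Ezh2 ECKO-labelled libraries) and 38.2 to 54.3 CPM (beta-catenin GOF). Most of this sum was Gja1, with means of 25.9 CPM in WT and 49.9, 50.1 and 42.7 CPM in the mutants in that order. Of the 4 astrocyte markers tested, 1, 1 and 2 were lower than in WT, in the same order, and none passed. The sum of 10 neuron markers was 71.1 to 115 CPM in Hdac2 ECKO, below the 159.9 to 305 CPM of WT. Nearly all of it was Stmn2, whose mean fell from 213 (WT) to 90.7 CPM (Hdac2 ECKO). Of the 3 neuron markers tested, 1 was lower in Hdac2 ECKO than in WT and none passed, with a median log2 fold change of 1.18. The part of red cells, leukocytes, mural cells, astrocytes and neurons in the differences of the members was not tested. In bulk RNA, fewer cells of a type and less RNA per cell cannot be told apart.

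Other genes of the response were counted from 5 lists of 105 genes, of which 100 were tested. In Hdac2 ECKO against WT, 19 of the 100 passed, beside 9.2% of all genes tested. Of 19 other immediate early transcription factors tested, 2 fell and 0 rose: Irf1, an interferon response factor, by 1.85 on the log2 scale (SE 0.39, adjusted p 0.032), and Cebpb, a bZIP factor of the acute phase response, by 1.66 (SE 0.49, adjusted p 0.047). The median of that list was 0.10, the same as over all genes. The level of Irf1 was 38.4 ± 2.43 CPM in Hdac2 ECKO against 139 ± 88.8 CPM in WT (SD, n = 3 each), with no overlap.

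Of 37 feedback and other rapidly induced genes tested, 6 fell and 2 rose, with a list median of −0.11. Ppp1r15a, whose product restarts translation after stress, fell, with a log2 fold change of −3.07, and so did Gadd45b (−2.61), Sertad1 (−2.37), Gadd45g (−2.08) and Ier3 (−1.52), with adjusted p from 0.032 to 0.035. Gadd45b and Gadd45g encode growth arrest proteins. Per1, a clock gene that is also rapidly induced, rose by 1.55 (adjusted p 0.034), from 6.88 ± 2.11 to 20.2 ± 6.66 CPM. Gadd45b went from 55.0 ± 11.7 CPM in WT to 9.00 ± 4.27 CPM in Hdac2 ECKO, and its spread within WT was smaller, relative to its mean, than that of Junb or Atf3.

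Of the 20 kinases and promoter-bound factors that act upstream, 1 fell and 3 rose, with a list median of 0.25. Mapk3, which encodes the kinase ERK1, fell by 1.42 on the log2 scale (adjusted p 0.036). Elk4, a partner of the serum response factor, rose by 1.18 (0.033), Creb1 by 0.97 (0.040), and Mapk14, which encodes p38 alpha, by 0.83 (0.047). Of 11 AP-1 partners tested, Batf2 (−2.93, adjusted p 0.034) and Atf4 (−1.19, 0.049) fell and Mafg (1.48, 0.034) rose, with a list median of −0.41. Of 13 heat shock and chaperone genes, Dnajb1 (−1.83, adjusted p 0.033) and Hspb1 (−1.99, 0.034) fell and 0 rose, with a list median of −0.56. The summed level of the 13 was 1992 to 2836 CPM in Hdac2 ECKO, wholly below the 3448 to 5914 CPM of WT.

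In the Ezh2 ECKO-labelled libraries against WT, 4 of the 100 passed, beside 1.03% of all genes: Ppp1r15a (−3.06, adjusted p 0.045), Irf1 (−2.23, 0.043) and Gadd45b (−2.01, 0.048) fell, and Ccn2, which encodes a matricellular growth factor, rose (1.503, 0.048). The genes with the smallest p in the lists without a call were Elk4 (0.96, adjusted p 0.067) and Mapk3 (−1.28, 0.070), Mafg (1.25, 0.071) and Batf2 (−2.05, 0.088), and Hsp90ab1 (−1.24, 0.071) and Hsph1 (1.42, 0.077). In beta-catenin GOF against WT, 0 of the 100 passed the edgeR test and 17 had an unadjusted p under 0.05, beside 6.07% of all genes. The smallest p per list belonged to Irf1 (−1.59), Ppp1r15a (−1.91), Mapk14 (0.59), Mafg (1.00) and Dnajb1 (−1.15), none of which passed. In the mean of the mutants against WT, 10 of the 100 passed, beside 2.31% of all genes, led by Ppp1r15a (−2.68, adjusted p 0.012) and Irf1 (−1.89, 0.012). Between mutants, 0 of the 100 passed the edgeR test in each of the 3 comparisons, with 6, 22 and 10 at an unadjusted p under 0.05 in the order given for the members, close to or below the 8.19%, 21.1% and 13.2% of all genes.

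Over the 12 libraries, the genes most like the mean log2 CPM of the 10 members were Gm20481 (r = 0.94), Phlda1 (0.90), Rsrp1 (0.90), Pnrc1 (0.88), Cops7a (0.87), Dnajb1 (0.87), Cebpb (0.87), Rgs2 (0.86), Hnrnpk (0.86) and Ccn1 (0.86). Among these, 4 belong to the lists above: Phlda1, Dnajb1, Cebpb and Ccn1. The values are a description over 12 libraries that share 4 groups.

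**Figure D5:**
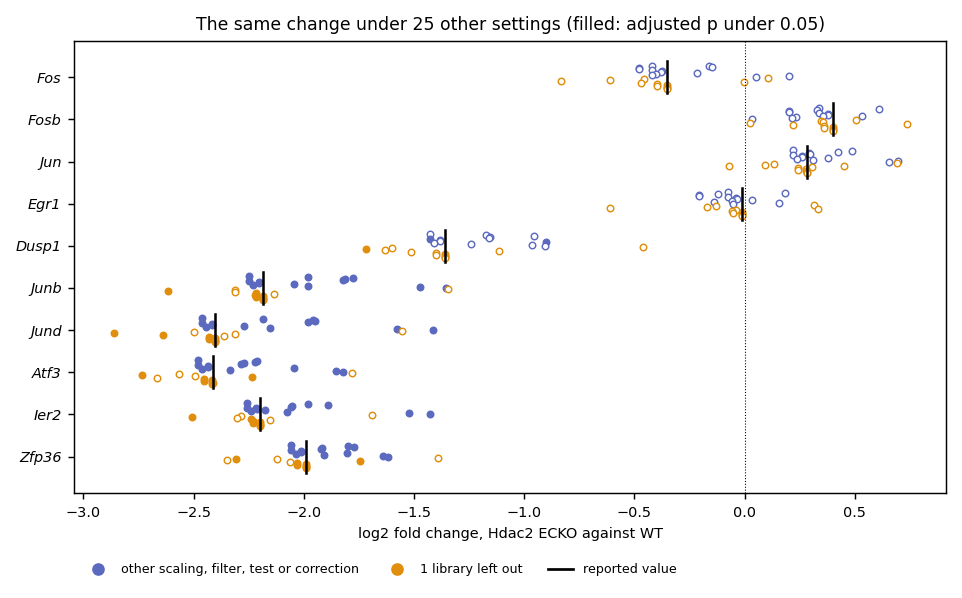
Log2 fold change of Hdac2 ECKO against WT for each immediate early gene under 25 alternative fits, with the black bar at the value reported, blue points for another scaling, filter, test or correction, orange points for 1 library left out, and filled points where the adjusted p was under 0.05. Junb, Jund, Atf3, Ier2 and Zfp36 stay left of 0 throughout, whereas Fos, Jun and Egr1 cross it.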

How the data were processed

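The deposited table is titled as normalized, but its values are whole numbers with library totals that differ and an excess of even values (79.5% to 84.0% of the values from 10 to 50, against 59.4% to 67.1% of those from 300 to 1000), as counts of both mates of a pair give. They were read as raw counts, although the authors deposited them under another name. Per the submitters' processing notes, FastQC, cutadapt, STAR, featureCounts and DESeq2 were used with mm10; versions and the use of strand are not given in the sources used here. Per the labels' protocols, the SMART-Seq V4 PLUS kit was used and read pairs were sequenced; the reads carry no molecular identifiers. Positions, counted from 1, matched GENCODE M21 gene starts on GRCm38 for 98.6% of genes.

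Counts were fitted with edgeR 4.0.16 (R 4.3.3; TMM scaling, quasi-likelihood F test) in 1 model over the 12 libraries with a term per group, for the 12577 genes that averaged 10 counts or more per library, with Benjamini-Hochberg adjustment over all of them within each comparison and a threshold of 0.05. Correlations used log2(CPM + 0.1) and scipy 1.17.1. Alternatives were median-ratio and library-size scaling, quantile normalization, limma 3.58.1 on log2(CPM + 1) and log2(CPM + 0.1), DESeq2 1.42.0, other filters, sample quality weights, a fit of the 2 groups compared, a replicate block, removal of a smooth trend on length and GC content (mgcv 1.9.3; GC content for 99.1% of genes), and each library left out. The edgeR fit of Hdac2 ECKO against WT was also run on simulated counts, and the alternatives were not.

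The members and the gene lists were chosen with earlier results of these data known. The named genes are the members, the targeted genes, up to 6 genes per list and comparison past the threshold in order of p (otherwise those with the smallest p), and the 10 genes whose log2 CPM correlated best with the members' mean. No 2 libraries of a group agreed within sampling noise: the lowest chi-square per degree of freedom was 62.6. The sum of the microglia and leukocyte markers leaves out the most abundant gene of that list, which is not reported here.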

Additional observations from a re-analysis of the deposited data

Results flagged for a closer look

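Against the same WT libraries, Egr1 had a log2 fold change of 0.0575 for the Ezh2 ECKO label and of −0.781 for beta-catenin GOF. It stands here because the libraries of the former group all lay above the WT mean of log2 CPM and those of the latter all below it. In the test of the difference itself, beta-catenin GOF stood at a log2 fold change of −0.84 relative to the Ezh2 ECKO-labelled libraries (SE 0.45, edgeR adjusted p 0.42) and did not pass the threshold.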

How the results depend on the processing

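With 3 libraries a group, the counts of calls moved with single libraries and settings more than the directions did. Leaving out 1 library at a time gave 0 to 6 members past the threshold for Hdac2 ECKO against WT, 0 to 5 for the Ezh2 ECKO-labelled libraries, 0 to 0 for beta-catenin GOF, 0 to 6 for the mean of the mutants, 0 to 5 for any difference among the groups, and 0 in each comparison between mutants. For the other listed genes the ranges were 0 to 30, 0 to 28, 0 to 1 and 0 to 28 against WT in the same order, and 0 to 0, 0 to 7 and 0 to 6 between mutants in the order of the report.

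For the Ezh2 ECKO-labelled libraries against WT, where 1 member passed, 5 passed with DESeq2, with no filter and with sample quality weights, 3 with a mean count of at least 50, and 0 with median-ratio scaling, library-size scaling, a fit of the 2 groups alone and the length and GC correction. Of the other listed genes, 1 passed there with library-size scaling and 7 with the length and GC correction. For beta-catenin GOF against WT, 1 member passed with DESeq2 and with sample quality weights and 5 with no filter, and against Hdac2 ECKO 3 passed with no filter and 2 with sample quality weights. In the mean of the mutants, 6 other listed genes passed with library-size scaling. For any difference among the groups, 6 members passed with DESeq2 and with no filter, 5 with sample quality weights, 4 with a mean count of at least 50, 1 with median-ratio scaling and with limma on log2(CPM + 0.1), and 0 with the length and GC correction. The cause of these differences was not tested.

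The replicate numbers did not pair the libraries: over 18 pairs with the same number, the deviations from group means correlated at −0.15 to 0.29, and 4 pairs were over 0.1. With a replicate block, 5 members passed in Hdac2 ECKO, 3 in the Ezh2 ECKO-labelled libraries, 0 in beta-catenin GOF, 5 in the mean of the mutants and 5 for any difference. With the block and the length and GC correction together these were 5, 0, 0, 5 and 2.

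No change of sign concerned a member past the threshold, and apart from Dusp1 for the Ezh2 ECKO label (−0.81, and 0.0864 without WT replicate 1) the members were within 0.5 of 0 on the log2 scale. In Hdac2 ECKO, Egr1 became 0.18 with library-size scaling, 0.0332 with sample quality weights and 0.15 with the length and GC correction, and Fos became 0.20 with the correction and 0.0509 with the block as well. For the Ezh2 ECKO label, Fos became 0.27 with the correction and 0.31 with the block as well. With 1 library left out, the range in Hdac2 ECKO was −0.83 to 0.10 for Fos, −0.0704 to 0.694 for Jun and −0.61 to 0.33 for Egr1. For the Ezh2 ECKO label it was −0.46 to 0.25 for Fos, −0.10 to 0.38 for Egr1 and −1.17 to 0.0864 for Dusp1, in beta-catenin GOF −0.48 to 0.21 for Fosb and −0.52 to 0.15 for Jun, and in the mean of the mutants −0.0534 to 0.55 for Jun and −0.46 to 0.0799 for Egr1. Of the pairs of members, 22 passed with library-size scaling in place of 23.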
